A study of Rattus norvegicus with 30 samples.

Results

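The nuclear-encoded subunits of the mitochondrial respiratory chain and ATP synthase, with the assembly factors that share their gene symbols, were examined in livers of rats and of mice carrying rat hepatocytes. The members were every gene on the rat array whose transcript maps to a rat symbol starting with Nduf, Sdha to Sdhd, Uqcr, Cox4 to Cox8 or Atp5. The members were chosen with earlier results of these data known. The rule itself used measured values only where a gene had several probes. The brightest of these on average over the 16 rat arrays then stood for the gene. This gave 84 genes, read by 106 probes, of 26912 genes or unnamed transcripts on the array. They comprised 7 core subunits, 24 accessory subunits and 6 assembly factors of complex I, 4 subunits and 2 assembly factors of complex II, 8 genes of complex III, 18 of complex IV and 15 of ATP synthase. Ndufa4 was placed with complex IV, and Cox6c-ps1 is annotated as a pseudogene that is transcribed.

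The respiratory chain sits in the inner mitochondrial membrane, where complexes I and II pass electrons from NADH and succinate to coenzyme Q, complex III hands them to cytochrome c and complex IV to oxygen. Complexes I, III and IV pump protons outward, and ATP synthase makes ATP as protons return. A few subunits of the complexes are encoded in mitochondrial DNA, but the genes described here lie in the nucleus.

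The study compared the hepatic response to phenobarbital (PB), a barbiturate that raises drug-metabolising enzymes largely through the constitutive androstane receptor (CAR, encoded by Nr1i3), between animal models. The arrays came from male animals fed for 7 days. Chimeric mice with rat hepatocytes gave 7 arrays at 0 ppm and 7 at 1000 ppm PB, Crl:CD(SD) rats (SD rats) gave 4 and 4, and CAR knockout (KO) rats gave 4 and 4. The labels name these arrays biological replicates, and they do not give the mouse host's strain, the share of its liver held by rat cells, or whether the KO rats are 1 line. The mouse host keeps its own liver cells other than hepatocytes and any hepatocytes not replaced, so chimeric RNA also holds mouse transcripts, whose binding to these rat probes was not tested. In a whole liver, fewer cells of a type and less RNA per cell cannot be told apart.

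Levels are given as log2 of the scanner's processed signal minus the 75th percentile of that array, so a level of 0 is the signal that 75% of its probes did not exceed. Because brightness depends on the probe, a level is compared between arrays and never between genes. The 75th percentile itself lay between 414 and 568 on the rat arrays and between 197 and 318 on the chimeric arrays, and the share of probes well above background lay between 58.7% and 67.0% and between 50.8% and 58.1%. The 8 SD arrays shared 1 slide and the 8 KO arrays another. The 7 chimeric controls and chimeric PB replicate 1 lay together on another slide, called slide 1, and chimeric PB replicates 2 to 7 on slide 2. Within each rat model the control arrays filled 1 row of the slide and the PB arrays the other, so row and diet cannot be told apart there. Cyp2b2, the standard PB-induced cytochrome P450, ran from 2.84 to 3.21 on control diet and from 6.56 to 7.35 on PB in SD rats, but from 2.74 to 2.94 and from 2.65 to 2.91 in KO rats. The Nr1i3 probe itself read 0.69 to 1.35 in KO controls and 0.76 to 1.88 in SD controls. The sources used here do not give its position relative to the deletion, so it does not check the knockout label.

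Almost all members were measurable. Of the 84 genes, 81 were well above background on all 30 arrays, Ndufaf7 on 28 and the muscle and heart isoform Cox6a2 on 23. The testis isoform Cox8c was above background on 1 array and was not tested. In every comparison 83 members were tested. The median level over the 81 members was 4.75 ± 0.0788 on control diet and 4.74 ± 0.0691 with PB in SD rats, and 4.77 ± 0.0291 and 4.77 ± 0.00961 in KO rats (SD, n = 4 each). In chimeric livers it was 5.51 ± 0.153 without PB and 5.71 ± 0.196 with it (SD, n = 7 each). The rat arrays thus lay close together, and both chimeric groups lay above them relative to the other genes of their array.

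Nuclear genes of the respiratory chain are known in other mammals for promoters with sites of nuclear respiratory factor 1 (NRF1) and of GABP, an ETS-family factor also called NRF2. RefSeq promoters of assembly GRCr8 were found for 74 of the 84 members, and the 250 bases before each start were searched on both strands. The NRF1 palindrome GCGCATGCGC occurred in 6 of these 74 promoters (8.11%) and in 233 of all 27457 promoters (0.849%). The 6 windows are shown because they carry that motif. Capitals mark the palindrome, with up to 30 bases on either side. In Ndufa11 2 matches overlap.
Atp5mc2 (chr7:135678235-135678304, minus strand): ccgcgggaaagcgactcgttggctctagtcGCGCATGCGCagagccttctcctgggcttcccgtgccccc
Atp5me (chr14:1464754-1464823, plus strand): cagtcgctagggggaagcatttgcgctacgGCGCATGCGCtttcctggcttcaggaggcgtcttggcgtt
Atp5po (chr11:44657503-44657572, minus strand): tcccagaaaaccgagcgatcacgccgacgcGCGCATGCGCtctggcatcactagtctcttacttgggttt
Ndufa11 (chr9:1637487-1637562, plus strand): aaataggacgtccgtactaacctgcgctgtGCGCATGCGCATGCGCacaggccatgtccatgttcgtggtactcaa
Ndufaf4 (chr5:43401607-43401676, plus strand): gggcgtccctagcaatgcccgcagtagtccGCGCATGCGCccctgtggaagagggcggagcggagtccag
Ndufaf5 (chr3:147961567-147961611, plus strand): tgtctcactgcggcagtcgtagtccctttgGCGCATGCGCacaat
The ETS site CCGGAAG occurred in 23 of the 74 promoters (31.1%) and in 7.74% of all promoters, and Atp5me held both motifs. The CAR-type hexamer AGGTCA was in 15 of the 74 (20.3%) and in 13.7% of all, and its direct repeat with a spacer of 4, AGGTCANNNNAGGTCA, was in 0 of the 74 and 0 of all 27457. As no promoter searched held that exact repeat, its absence does not set members apart from other genes. The promoter of Atp5if1 is shown in full because this gene was the only member past the threshold in SD rats and had the largest rise in chimeric livers. None of the 4 motifs searched was found in it, so it has no capitals.
Atp5if1 (chr5:150026678-150026927, minus strand): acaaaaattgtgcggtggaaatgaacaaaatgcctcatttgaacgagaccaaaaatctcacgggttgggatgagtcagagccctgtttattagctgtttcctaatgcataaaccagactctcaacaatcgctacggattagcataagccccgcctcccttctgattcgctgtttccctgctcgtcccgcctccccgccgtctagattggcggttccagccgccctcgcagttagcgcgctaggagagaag
A match describes letters in a window and is not evidence that a factor binds there. The lack of an exact match in 250 bases is likewise not evidence that a gene has no such site.

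In SD rats on PB, 1 respiratory chain gene rose, the ATP synthase inhibitor Atp5if1, and no member fell past the threshold. Atp5if1 encodes a small protein that blocks ATP hydrolysis when ATP synthase runs in reverse. It read 2.92, 3.07, 2.81 and 2.98 in the 4 controls and 3.38, 3.32, 3.63 and 3.25 in the 4 rats on PB. Every PB array lay above every control array. The difference was 0.45 ± 0.101 on the log2 scale (1.37-fold), with an adjusted p of 0.0223 in limma. It was the only call among 83 members, against 4.3% of all 17008 genes tested in this comparison, 2.5% higher and 1.8% lower. The median difference of the members was -0.02, as it was over all genes.

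The other members spanned narrow ranges in SD rats. Subunits of complex II ran from -0.04 (Sdhb) to 0.02 (Sdha), core subunits of complex I from -0.18 (Ndufs7) to 0.09 (Ndufs1), and its accessory subunits from -0.14 (Ndufb8) to 0.09 (Ndufa5). Complex III ran from -0.17 (Uqcr10) to 0.03 (Uqcrc1). Apart from Atp5if1, no ATP synthase gene moved by more than the -0.14 of Atp5mc1, which encodes the proton-carrying ring subunit. The member next to Atp5if1 by p-value was Ndufaf4, an assembly factor of complex I. It read 0.64, 0.19, 0.48 and 0.51 in controls and 0.93, 0.87, 1.17 and 0.69 on PB. These groups did not overlap, but the difference of 0.46 ± 0.133 had an adjusted p of 0.0652 in limma. Cox6a2 differed by -0.53 ± 0.154 (adjusted p = 0.0662), on a signal well above background on 1 of the 4 PB arrays. Ndufaf7, a methyltransferase for complex I, differed by 0.16 ± 0.0577 and Ndufa6 by -0.12 ± 0.0470, with adjusted p of 0.128 and 0.167.

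The call on Atp5if1 was close to the threshold. Its adjusted p was 0.0816 in a fit of the 8 SD arrays alone, 0.179 with all 30 arrays in 1 fit, and 0.0542, 0.0563 and 0.063 without SD control 1, SD control 3 and SD PB 3. Without SD PB 4, 3 members passed, Ndufaf4 among them with an adjusted p of 0.0479.

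**Figure D1:**
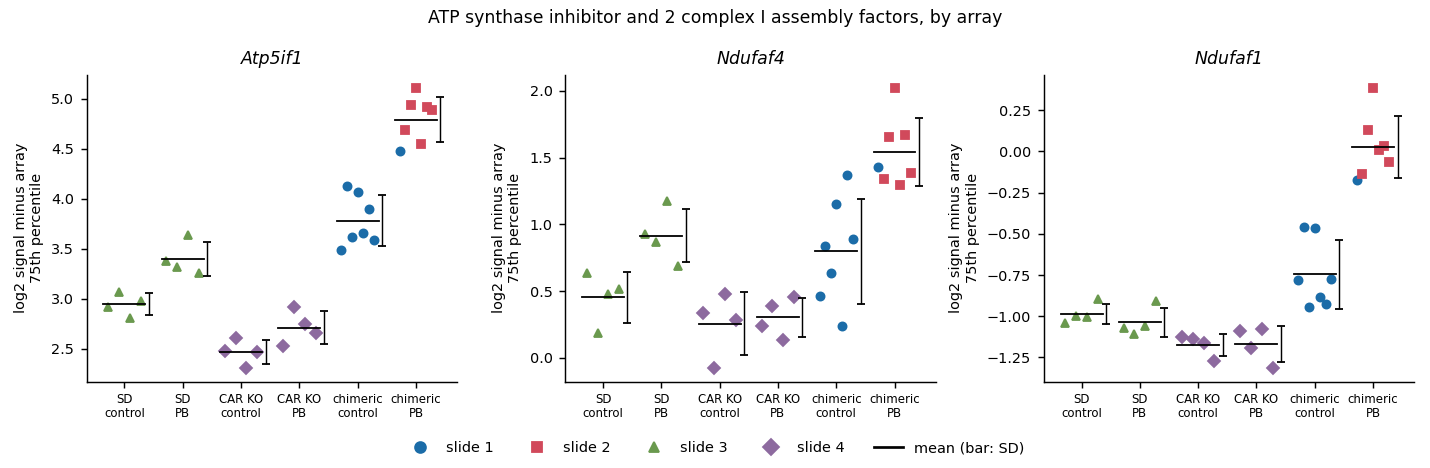
Level of Atp5if1, Ndufaf4 and Ndufaf1 on each of the 30 arrays, as log2 signal minus the array's 75th percentile, by group. Points are arrays, with shape and colour by slide, lines are group means and bars are SD. Atp5if1 lies higher on PB than on control diet without overlap in SD and in chimeric livers, and chimeric PB replicate 1, on slide 1, lies above all controls for all 3 genes.

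In KO rats no member passed the threshold with limma, against 0.205% of 17550 genes tested, and 9 of the 83 had an unadjusted p under 0.05, as did 2857 of the 17550. Atp5if1 read 2.47, 2.61, 2.31 and 2.47 in KO controls and 2.52, 2.91, 2.74 and 2.66 on PB. The groups overlapped, and the difference was 0.25 ± 0.101 (adjusted p = 0.251 in limma). Ndufaf4 read 0.33, -0.08, 0.48 and 0.29 in controls and 0.24, 0.39, 0.13 and 0.46 on PB, which overlap throughout. The 5 lowest p-values belonged to Cox6b2 at -0.28 ± 0.0834 (adjusted p = 0.14), Cox6a2 at -0.46, Cox4i2 at -0.26, Cox8b at -0.55 and Atp5mc2 at 0.13, with adjusted p up to 0.230. Of these, 4 are isoforms of complex IV better known from muscle, testis or lung than from liver.

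Setting the responses of the 2 rat models against each other also gave no call among the 83 members with limma, against 0.533% of 17811 genes, with 5 at an unadjusted p under 0.05, as for 2347 of the 17811. The KO response of Atp5if1 was lower than the SD response by 0.21 (log2 difference -0.21 ± 0.143, adjusted p = 0.569). The call in SD rats and the lack of one in KO rats therefore did not amount to a difference between them that passed the test. Ndufaf7 and Ndufaf4 had differences of -0.23 ± 0.0818 (adjusted p = 0.255) and -0.41 ± 0.189 (adjusted p = 0.366). Ndufb10 at 0.18, Atp5mc1 at 0.24 and Cox6b2 at -0.26 completed the 5.

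**Figure D2:**
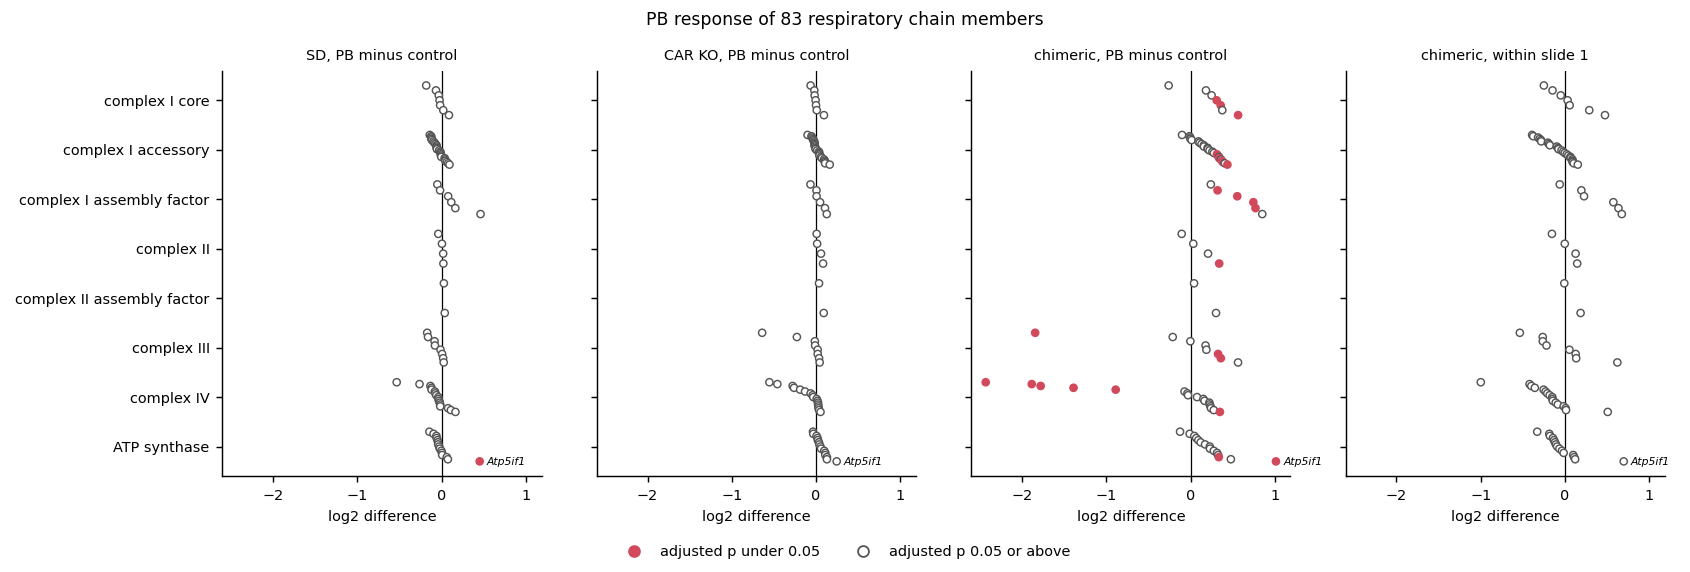
Log2 difference between PB and control diet for 83 members by class in SD rats, KO rats and chimeric livers, and between chimeric PB replicate 1 and the 7 chimeric controls on slide 1. Each point is a gene, filled where limma's adjusted p was under 0.05. The first panel has 1 filled point, Atp5if1, the second none, the third 25 and the fourth none.

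On control diet, KO and SD livers differed in 40 of the 83 members, 7 higher in KO rats and 33 lower, against 34.1% of 17723 genes tested. Of all genes, 14.4% were called higher and 19.7% lower. The median difference was -0.12 over members and -0.08 over all genes. These medians were -0.067 and -0.071 under quantile normalization, where 11 members were called higher and 22 lower. They were -0.089 and -0.114 with normexp background and -0.15 and -0.11 with median centring. Whether members lay lower than other genes thus depended on the processing. All KO arrays lay on 1 slide and all SD arrays on another, so slide and genotype cannot be told apart in any of these values.

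Lower levels in KO rats were small and ran through every complex except complex II. They took in 8 of 15 ATP synthase genes, 12 of 24 accessory and 2 of 7 core subunits of complex I, 3 of 6 of its assembly factors, 2 of 8 complex III genes and 5 of 17 complex IV genes. The ring subunit gene Atp5mc1 read 6.86, 6.65, 6.92 and 6.74 in SD controls and 6.29, 6.46, 6.17 and 6.22 in KO controls. The groups did not overlap, and the difference was -0.51 ± 0.0706. Ndufb7, an accessory subunit in the membrane arm of complex I, read 4.55, 4.44, 4.63 and 4.60 against 4.13, 4.08, 4.18 and 4.03. Every KO array was below every SD array, by 0.45 on average (log2 difference -0.45 ± 0.0564, adjusted p = 3.47e-05 in limma). Atp5if1 was lower in KO controls by the same order, at -0.48 ± 0.101 (adjusted p = 0.00242). Cox6b1, Cox4i1 and Cox5b, broadly expressed subunits of complex IV, differed by -0.42, -0.34 and -0.34. The other 2 probes of Cox6b1 gave -0.05 and 0.20 in this comparison, neither past the threshold. The complex II assembly factor Sdhaf1 differed by -0.39. Hepatocyte markers were called lower as well for 4 of the 8 listed, with a summed level of 11.35 to 11.44 in KO controls and 11.54 to 11.63 in SD controls. Their part in these results was not tested.

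Higher levels in KO rats were fewer and larger. The lung and hypoxia isoform Cox4i2 read 1.44, 1.41, 1.17 and 1.35 in SD controls and 2.93, 2.61, 2.98 and 2.80 in KO controls, a difference of 1.49 ± 0.0916 (adjusted p = 1.69e-08 in limma). Uqcrq, a small subunit of complex III, read -0.14, -0.32, -0.59 and -0.03 against 0.44, 1.11, 2.10 and 0.57, a difference of 1.32 ± 0.271. Neither gene's groups overlapped, though the 4 KO values of Uqcrq were spread more widely than the SD values. Cox6c-ps1 differed by 1.68 ± 0.141, Cox7c, a broadly expressed subunit, by 1.18 ± 0.109, and the testis isoform Cox6b2 by 0.85 ± 0.0835. The complex II anchor Sdhc was higher by 0.21 ± 0.0699. Of the 7 core subunits of complex I, 1 was also called higher, and differences in that class reached 0.33. Skeletal muscle markers were also higher in KO controls, in 3 of 3 tested, with Ckm at 1.42 and Mb at 0.95. Acta1 was also called, on a probe well above background on 1 of the 4 SD controls and on all 4 KO controls, and Myh4 was not well above background on any array. The summed level of the 4 markers ran from -1.33 to -0.63 in SD controls and from 0.18 to 0.51 in KO controls. Their part in the result was not tested. With all 30 arrays in 1 fit, 8 members were called, 5 higher and 3 lower.

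**Figure D3:**
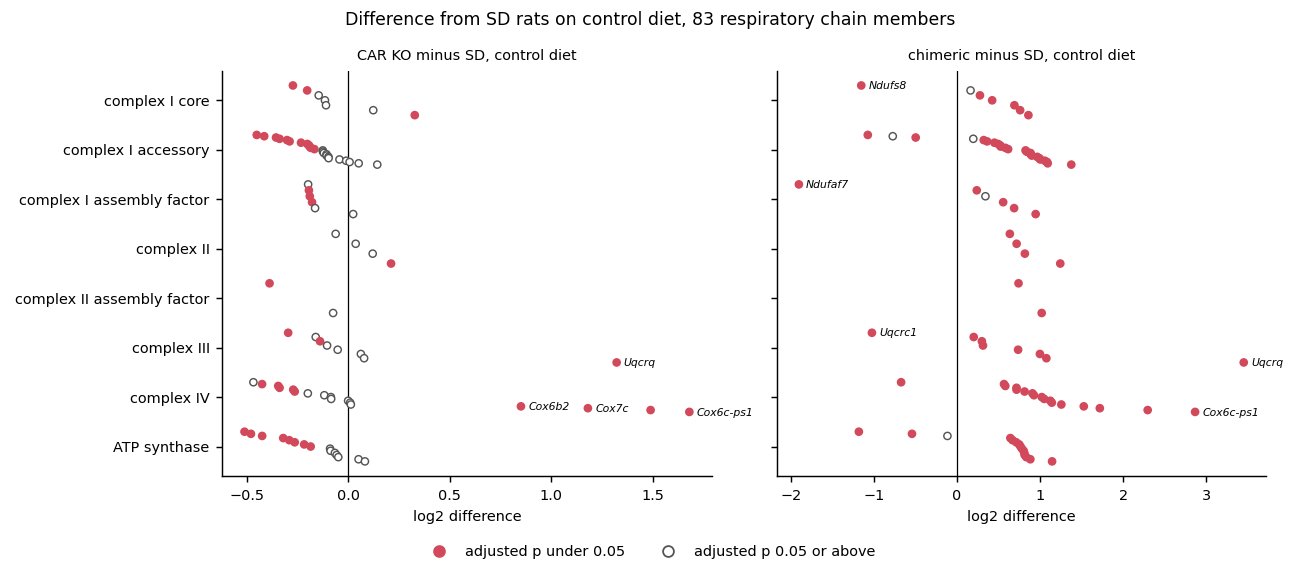
Log2 difference from SD rats on control diet for 83 members by class, in KO rats (left) and chimeric mice (right). Each point is a gene, filled where limma's adjusted p was under 0.05. In KO rats most points lie between -0.51 and 0.21 with 5 beyond 0.8, and in chimeric mice most lie above 0.

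Chimeric livers on PB differed from those on control diet in 25 of 83 members, 19 higher and 6 lower, against 42.7% of 14445 genes tested. Of all genes tested, 19.3% were called higher and 23.4% lower. The median difference was 0.22 over members and 0.06 over all genes. The rises were led by Atp5if1 and by assembly factors of complex I. With the slide as a block, which leaves chimeric PB replicate 1 as the only PB array beside the controls, no member was called by limma, against 1.09% of all genes, and 3 had an unadjusted p under 0.05, as did 1501 of the 14445. With median centring in place of the 75th percentile 52 members were called, 47 higher and 5 lower. Markers of other cells moved as well. Macrophage markers were lower for 3 of 5 tested, with a summed level of 3.001 to 3.84 on PB and 3.77 to 4.28 on control diet, stellate cell and fibroblast markers were lower for 3 of 6 and higher for 1, and hepatocyte markers were lower for 2 of 8. Their part in the results was not tested.

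Atp5if1 ran from 3.49 to 4.13 in the 7 chimeric controls, with a median of 3.65, and from 4.48 to 5.10 in the 7 PB livers, with a median of 4.88. No PB array reached down to the controls. The difference was 1.01 ± 0.135 (2.02-fold, adjusted p = 5.99e-05 in limma). On slide 1, PB replicate 1 read 4.48, above all 7 controls, and its difference from them was 0.70. As the only PB array on that slide, it gives no spread among PB livers there.

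Of the 6 assembly factors of complex I, 4 rose. Ndufaf1, needed to build the membrane arm, ran from -0.94 to -0.46 in controls (median -0.78) and from -0.17 to 0.38 on PB (median 0.01). The groups did not overlap, and the difference was 0.77 ± 0.118 (adjusted p = 0.000148). On slide 1 the single PB array, replicate 1, differed from the controls by 0.57. Ndufaf4 ran from 0.23 to 1.37 (median 0.84) and from 1.29 to 2.02 (median 1.43), so that the groups met at their edges. It differed by 0.75 ± 0.172 (adjusted p = 0.00274), and by 0.63 between PB replicate 1 and the controls on slide 1. Ndufaf5, which hydroxylates a core subunit, rose by 0.56 ± 0.138 and Ndufaf3 by 0.32. Ndufaf7 had a difference of 0.85 that did not pass the test.

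Among the structural subunits, the iron-sulfur core subunit Ndufs1 ran from 3.41 to 4.12 in controls (median 3.65) and from 4.07 to 4.61 on PB (median 4.21), a rise of 0.56 ± 0.127 (adjusted p = 0.00225). The ranges overlapped narrowly, and PB replicate 1 read 4.18. The core subunits Ndufv1 and Ndufs3 rose by 0.36 and 0.31, the accessory subunits Ndufa12 and Ndufa10 by 0.44 and 0.38, and 6 of 24 accessory subunits rose in all. Sdha, the flavoprotein of complex II, rose by 0.34, the complex III core protein Uqcrc2 by 0.36 and the Rieske protein Uqcrfs1 by 0.33. PB replicate 1 alone differed from the controls by 0.48 for Ndufs1, 0.06 for Ndufv1, -0.05 for Ndufs3, 0.06 for Ndufa12 and 0.09 for Ndufa10. For Sdha, Uqcrc2 and Uqcrfs1 it differed by 0.13, 0.13 and 0.05. Of ATP synthase, 2 of 15 genes rose, Atp5if1 and the stalk subunit Atp5pb. Atp5f1a and the catalytic subunit gene Atp5f1b had differences of 0.09 and 0.23 that did not pass. Of the 19 genes that rose, PB replicate 1 lay inside the range of the 7 controls in 14, and over all members it did so in 63 of 83. Over all genes it did so in 9399 of 14445, although its Cyp2b2 level of 6.36 was far above the -0.01 to 1.63 of the controls.

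The 6 genes that were lower in chimeric livers on PB were Cox6c-ps1, Cox7c, Uqcrq, Cox4i2, Cox6b2 and Cox6a2, and for 5 of them the arrays divided by slide. Cox6c-ps1 ran from 2.79 to 3.37 in controls and from -0.17 to 0.61 in PB replicates 2 to 7, but read 2.91 in PB replicate 1 on the controls' slide. Cox4i2 ran from 3.32 to 4.02 and from 1.22 to 1.86, with 3.43 in PB replicate 1. Cox7c ran from 3.50 to 4.31 and from 1.37 to 2.04, with 3.50 in PB replicate 1. For these genes the PB liver on slide 1 was among the controls or at the lower edge of their range. Uqcrq read 2.65 in that liver, within its control range of 2.57 to 3.99, and Cox6b2 read 3.01, below its control range of 3.16 to 3.86 and above the 1.52 to 2.13 of slide 2.

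The differences of these 5 genes over all 14 arrays were -2.43 ± 0.378 for Cox6c-ps1, -1.88 ± 0.260 for Cox7c, -1.84 ± 0.329 for Uqcrq, -1.78 ± 0.266 for Cox4i2 and -1.39 ± 0.204 for Cox6b2. Between PB replicate 1, the only PB array on slide 1, and the controls they were -0.08, -0.40, -0.54, -0.21 and -0.42. Cox6a2, whose signal was well above background on only part of the arrays, differed by -0.89 ± 0.339 (adjusted p = 0.0456 in limma). The same 5 genes were the ones highest in KO rats against SD rats. A pattern in which every array of the KO slide lies above every array of the SD slide, and every array of slide 1 above every array of slide 2, was shown by these 5 of 83 members (6.02%) and by 899 of 14335 genes (6.27%), so it was no more frequent among members than elsewhere. Skeletal muscle markers also were lower on PB, with Mb at -0.70 and Ckm called lower on a probe well above background on 6 of 7 control and 1 of 7 PB arrays. Their part in the result was not tested.

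**Figure D4:**
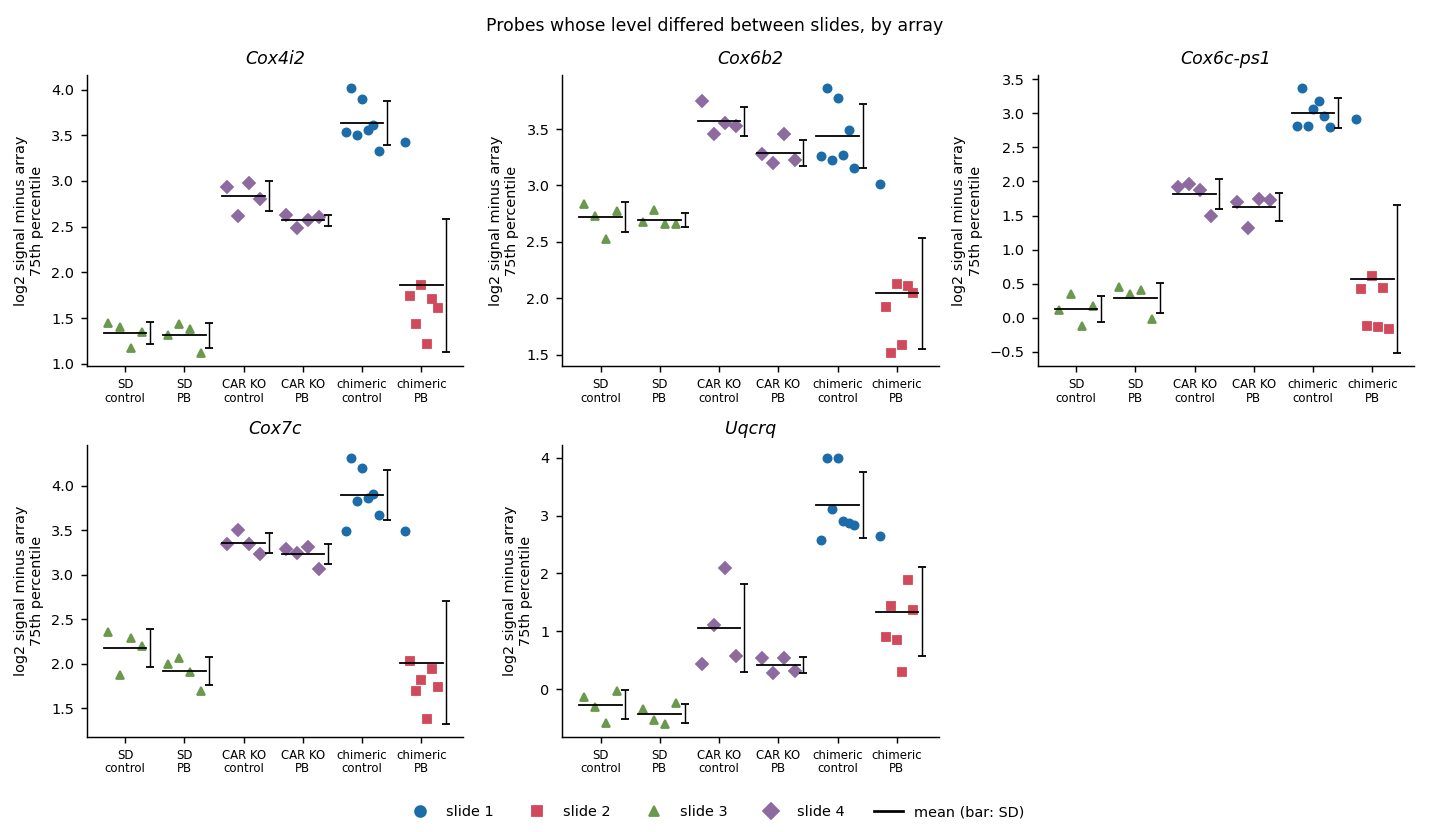
Level of Cox4i2, Cox6b2, Cox6c-ps1, Cox7c and Uqcrq on each of the 30 arrays, as log2 signal minus the array's 75th percentile, by group. Points are arrays with shape and colour by slide, lines are means and bars are SD. Chimeric PB replicate 1 stands with or near the controls that share its slide, and PB replicates 2 to 7 stand below.

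Set against the SD response, the chimeric response differed in 13 of 83 members, 8 higher and 5 lower, against 18.9% of 17254 genes tested, 6.29% of the genes higher and 12.6% lower. The count was 28 with quantile normalization and 29 with median centring (23 and 24 of them higher), 24 without chimeric PB 1 and 7 without SD control 4, SD PB 1 or SD PB 4. The 5 lower ones were the genes divided by slide, from -1.37 for Cox6b2 to -2.60 for Cox6c-ps1. Among those higher were Ndufaf1 at 0.82 ± 0.147, Atp5if1 at 0.56 ± 0.182 (adjusted p = 0.0298 in limma), Ndufa12 at 0.50, Ndufaf5 at 0.48, Ndufs1 at 0.48, Ndufs3 at 0.38 and Uqcrfs1 at 0.34. Ndufaf1 had a difference of -0.05 ± 0.0667 on PB in SD rats and 0.01 in KO rats. For Ndufaf4 the difference between the models of 0.28 ± 0.239 did not pass. With the slide as a block there were no calls among members. The SD arrays enter this comparison and the KO comparison alike, so the results are not independent of each other.

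On control diet, chimeric livers differed from SD livers in 78 of 83 members, 70 higher and 8 lower, against 74.6% of 17159 genes tested, 38.7% of them higher and 35.9% lower. The median difference was 0.75 over members and 0.04 over all genes. Slide, host species and depth of signal all differ with the model here and cannot be told apart from it. Ndufc2, an accessory subunit of the membrane arm, read 4.83, 4.58, 4.77 and 4.73 in SD controls and 5.88 to 6.43, with a median of 6.02, in chimeric controls, a difference of 1.38 ± 0.0966 (adjusted p = 1.77e-12 in limma). The groups stood well apart. Cox8a differed by 1.26, Sdhc by 1.24, Atp5mg by 1.14, Cox6c by 1.14, Cox5a by 1.12 and Cox4i1 by 1.02. The largest values were those of genes named above, Uqcrq at 3.45 ± 0.335, Cox6c-ps1 at 2.87, Cox4i2 at 2.30, Cox7c at 1.72 and Cox6a2 at 1.53. Under quantile normalization 64 members were called, 44 higher and 20 lower, with a member median of 0.19 against 0.01 over all genes. The split of higher and lower calls thus depended on the scaling. Macrophage markers were lower in chimeric controls in 8 of 8 cases, with a summed level of 3.77 to 4.28 against 5.80 to 5.99 in SD controls, and stellate cell and fibroblast markers for 5 of 7, at 2.04 to 2.69 against 3.90 to 4.46. Endothelial markers were lower for 4 of 5, hepatocyte markers for 4 of 8, cholangiocyte markers for 2 of 3 and T, NK and B cell markers for 4 of 4 tested. Other markers were called higher, 2 of 7 for stellate cells and fibroblasts, 1 of 3 for cholangiocytes and 1 of 8 for hepatocytes. The part of all these markers in the result was not tested.

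The 8 lower members were Ndufaf7 at -1.90 ± 0.349, Atp5f1b at -1.18 ± 0.369, Ndufs8 at -1.15, Ndufa11 at -1.07, Uqcrc1 at -1.02, Cox6b1 at -0.67, Atp5f1d at -0.54 and Ndufb7 at -0.50. Chimeric control 2 and chimeric control 4, on slide 1, and chimeric PB 4, on slide 2, were the lowest of the chimeric arrays for 5 of these 8 genes and for Ndufa9, which was not called.

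Atp5f1b, the catalytic beta subunit of ATP synthase, read 1.46, 1.29 and 1.72 on those 3 arrays and 2.87 to 4.14 on the other 11 chimeric arrays. Uqcrc1, a core protein of complex III, read 1.53, 0.48 and 1.28 against 3.02 to 3.95. Ndufs8, an iron-sulfur core subunit of complex I, read -0.22, -0.57 and -0.28 against 1.26 to 2.34. In each case the 3 arrays were far below the rest, in both diets. Ndufa9 read 0.69, 0.77 and 1.13 against 2.27 to 3.49, Ndufa11 1.40, 1.65 and 2.01 against 2.52 to 3.74, and Atp5f1d 3.08, 2.67 and 3.29 against 3.83 to 4.70. These 3 arrays also had low 75th percentiles, at 235, 216 and 197. Of all 83 members, 6 (7.23%) lay below every other chimeric array on the 3 arrays, against 10.3% of all genes tested, and 22 (26.5%) lay above, against 7.5%. Without the 3 arrays the differences from SD rats were -0.61 for Atp5f1b, -0.55 for Ndufs8, -0.38 for Uqcrc1 and -1.43 for Ndufaf7, and Atp5f1d at -0.20 no longer passed (adjusted p = 0.115). The PB response without them had 36 calls, 31 higher and 5 lower.

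**Figure D5:**
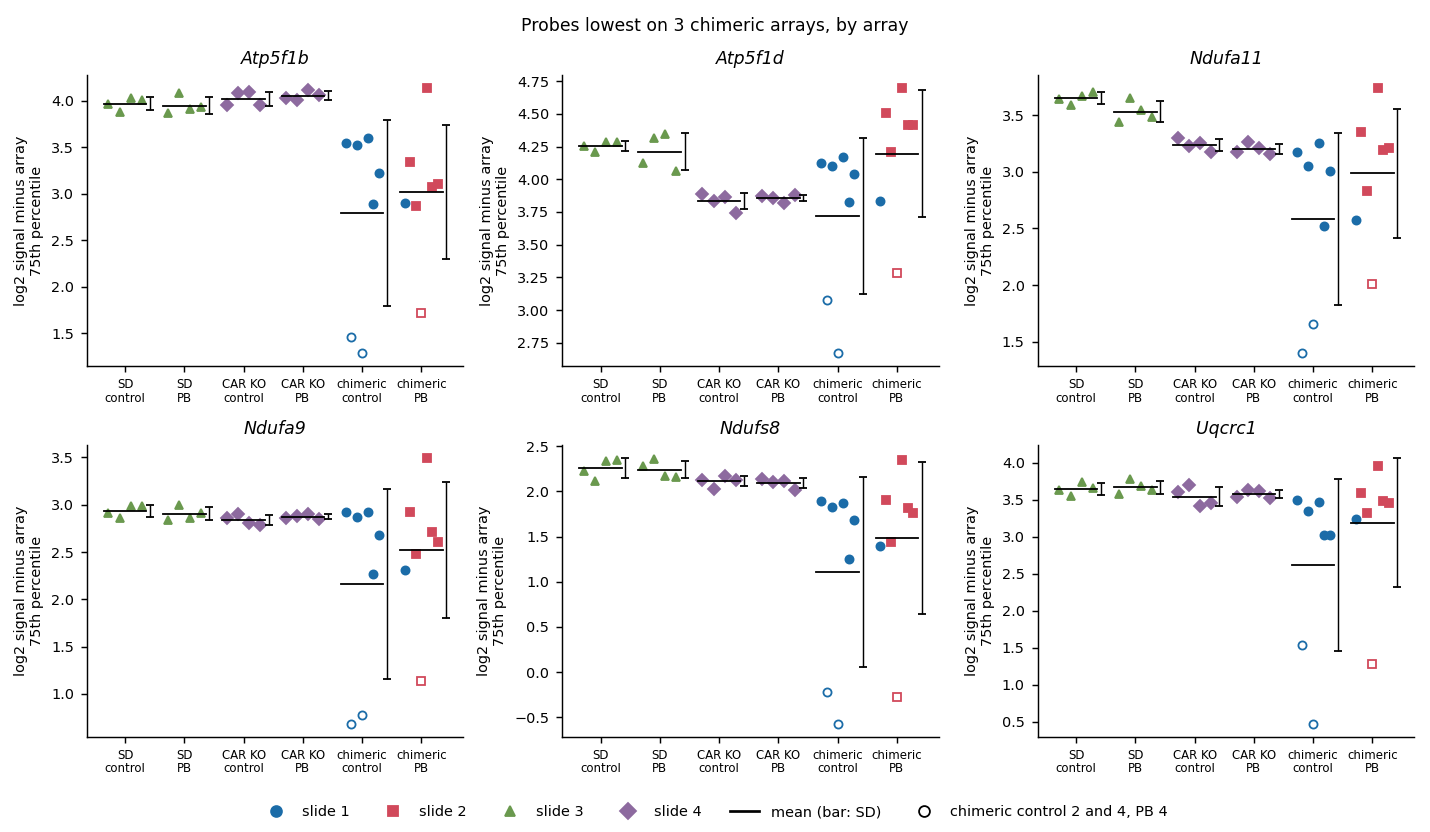
Level of 6 members on each of the 30 arrays, as log2 signal minus the array's 75th percentile, by group. Points are arrays with shape and colour by slide, open symbols are chimeric control 2, chimeric control 4 and chimeric PB 4, lines are means and bars are SD. The 3 open symbols lie below all other chimeric arrays in all 6 panels.

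Of the members, 17 had more than 1 probe, and these did not always move together. Their probes had the same sign in 12 of 16 genes for the SD response, 7 of 17 for the KO response, 9 of 15 for the chimeric response, 10 of 17 for KO against SD controls and 9 of 17 for chimeric against SD controls. Where changes are near 0 a sign carries little. The 4 probes of Ndufaf4 gave 0.46, 0.28, 0.57 and 0.33 in SD rats on PB and 0.75, 0.79, 0.73 and 0.38 in chimeric livers on PB, all upward. The same probes gave 0.34, -1.11, -0.59 and -0.48 for chimeric against SD controls, so that gene has no settled direction there. The other probe of Cox6c-ps1 gave -3.17 for the chimeric response and 2.50 for KO against SD controls, the same way as the probe used. For chimeric against SD controls the 3 probes of Cox6b1 gave -0.67, -0.30 and 1.52, the 2 of Ndufaf7 -1.90 and 0.53, and the 2 of Ndufs4 1.09 and -1.40. Reads of near-identical pseudogenes or paralogs by a probe were not tested.

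Genes that serve the same organelle were followed as lists. In SD rats on PB, where 2.5% of all genes tested rose and 1.8% fell, 4 of 66 mitochondrial ribosomal protein genes rose (Mrpl14 by 0.47, Mrpl49 by 0.38, Mrpl50 by 0.38 and Mrps2 by 0.27). Of 32 other assembly factors 2 rose, Acad9, which helps assemble complex I, by 0.60 ± 0.0633 and Cox15, needed for the haem of complex IV, by 0.30. Pc, the pyruvate carboxylase gene, and Sucla2 fell by 0.53 and 0.30 among 18 citric acid cycle genes, and Prodh fell by 0.39 among 10 genes of cytochrome c and electron entry. No gene of coenzyme Q synthesis (10 tested), of mitochondrial biogenesis (19) or of nucleotide and phosphate carriers and uncouplers (8) was called. In KO rats none of these lists held a call with limma. The responses of the 2 rat models differed for Acad9 by -0.54 (adjusted p = 0.0146) and for Mrpl14 by -0.51 (adjusted p = 0.0481).

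In chimeric livers on PB, 19.3% of all genes tested rose and 23.4% fell. Of the mitochondrial ribosomal genes 30 of 66 rose and 2 fell, of citric acid cycle genes 10 of 18 rose (among them Dlat by 0.90, Dlst by 0.90 and Idh3a by 0.60), and of coenzyme Q synthesis 7 of 10 rose (Coq6 by 0.85, Coq4 by 0.79, Coq9 by 0.58 and Coq3 by 0.57). Of other assembly factors 15 of 29 rose, led by Lyrm7, which serves complex III, by 1.22 and Acad9 by 0.82. Of biogenesis regulators 5 of 18 rose and 1 fell, and of cytochrome c and electron entry 2 of 10 rose and 2 fell. Adenine nucleotide carriers went both ways, Slc25a5 by 0.50 and the muscle and heart form Slc25a4 by -0.89. With the slide as a block no gene of these lists was called, and list medians were 0.14 for ribosomal genes, 0.22 for the citric acid cycle, 0.32 for coenzyme Q synthesis, 0.14 for other assembly factors, 0.09 for carriers and uncouplers, -0.02 for biogenesis regulators and -0.28 for cytochrome c and electron entry. Between KO and SD controls 31 of 66 ribosomal genes and 12 of 32 other assembly factors were lower in KO rats, against 19.7% of all genes tested, and slide and genotype cannot be told apart here either.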

How the data were processed

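Liver RNA was measured on 30 rat arrays. Per the labels' protocols, tissue was kept in RNAlater and RNA was prepared with Isogen and RNeasy and labelled with Cy3. Per the file headers, the arrays are Agilent design 028279 (grid annotated to rn4) read by Feature Extraction 10.7.3.1 under protocol GE1_107_Sep09. The deposited intensity values are the scanner's processed signal, corrected for background and for spatial trends within each array, and each spot's median signals. The authors' deposited series matrix holds log2 values that follow log2 of the processed signal on every array; its offset per array was not established, and it served as an alternative.

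From 62976 spots, 4259 control spots were left out and spots of a probe were averaged on the log2 scale, leaving 30367 probes; none was saturated. Accessions in a RefSeq list for GRCr8 named 18004 probes (15170 symbols); 12363 stayed unnamed. Values are log2 processed signal minus the array's 75th percentile. Genes entered a test if well above background on 75% or more of the arrays of a compared group. Differences were tested with limma 3.58.1 (lmFit, eBayes) in R 4.3.3 with the data.table package (version 1.17.8) over all genes, with Benjamini-Hochberg adjustment and a threshold of 0.05. The 16 rat arrays formed 1 fit, the 14 chimeric arrays another, and chimeric mice were compared with SD rats in a fit of all 30. Every adjusted p is limma's; errors of differences are standard errors. The procedure was tested on simulated data. Figures used matplotlib 3.10.9. Promoters came from RefSeq windows of GRCr8, matched by gene identifier.

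Named were, per comparison, the 10 largest differences among called members, or the 5 lowest p-values where under 5 were called. Added to these were the core subunits, Atp5f1a, Atp5f1b, Atp5f1c and isoform pairs, and up to 4 called genes per further list. Other genes, such as the extremes of a class, were chosen after their values were seen. Some genes that the rule names are not reported here. Members and lists were chosen with earlier results of these data known. Same-numbered replicates did not deviate together in every pair (correlations -0.28 to 0.83), so numbers were not taken to pair samples. In chimeric mice the correlations were 0.83, 0.55 and 0.34 for replicates 4, 5 and 6 and from -0.22 to 0.26 for the others. Whether these numbers pair samples is not given by the labels. Alternatives were normexp background (median signals, offset 50), quantile normalization, median centring, other filters, probe averages, slide and replicate blocks, other sets of arrays and leaving out each replicate; leaving out 3 chimeric arrays together was chosen after seeing the data. Brightness over background and the number of arrays limit the precision.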

Additional observations from a re-analysis of the deposited data

Results flagged for a closer look

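Single arrays stood apart from the rest of their group in 16 of 282 gene-and-group sets tested (5.67%), where chance gives about 1 in 20. In chimeric PB replicate 1 the levels of Cox4i2 (3.43), Cox6b2 (3.01), Cox6c-ps1 (2.91) and Cox7c (3.50) lay above the other 6 PB arrays, and this is the only PB array on the slide of the controls. In chimeric PB replicate 4 Ndufs8 (-0.28) and Uqcrc1 (1.28) lay below the others, and this array is 1 of the 3 low ones described in the report. In KO controls Atp5f1c (4.23) and Cox8a (6.32) were low in replicate 4, and Cox7b (5.27) and Ndufaf5 (0.76) were high in replicate 3. In KO rats on PB Cox6c-ps1 was low in replicate 2 (1.32), Cox7b high in replicate 4 (5.31) and Ndufaf7 high in replicate 1 (-1.46). In SD rats Cox7a2 was low in control 2 (4.95), Cox6a2 high in control 3 (-4.23) and Ndufaf5 low in PB 1 (0.79).

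The PB response differed between chimeric livers and SD rats, by limma's test of the difference itself, in 12 genes named in the report. It was higher in chimeric livers for Ndufaf1 (0.82), Atp5if1 (0.56), Ndufa12 (0.50), Ndufaf5 (0.48), Ndufs1 (0.48), Ndufs3 (0.38) and Uqcrfs1 (0.34). It was lower for Cox6c-ps1 (-2.60), Cox4i2 (-1.75), Uqcrq (-1.68), Cox7c (-1.62) and Cox6b2 (-1.37). With the slide as a block none of these differences passed, and slide 2 holds only chimeric PB arrays.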

How the results depend on the processing

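The counts of members past the threshold depended on these settings. In SD rats the count of 1 became 3 with no filter on dim probes and 0 with only the 8 SD arrays or all 30 arrays. Between KO and SD controls 40 became 8 with all 30 arrays. For the chimeric response 25 became 52 with median centring (47 higher, 5 lower, with the median of all genes at 0.35), 16 with no filter, 44 with all 30 arrays and 0 with a slide block. For the chimeric against the SD response 13 became 28 with quantile normalization, 29 with median centring, 30 without the 3 chimeric arrays and 0 with a slide block. Leaving out 1 array at a time gave 0 to 3 calls in SD rats, 0 to 0 in KO rats and for their difference, 29 to 40 for KO against SD controls, 19 to 32 for the chimeric response, 7 to 24 for its difference from SD rats and 72 to 80 for chimeric against SD controls. The counts of 32 and 24 were those without chimeric PB 1. A replicate block gave 1, 0, 0, 33, 29, 13 and 79 calls in the order of the comparisons in the report. Replicate numbers were not taken to pair samples. The cause of these shifts was not tested. Over named genes and alternatives 6911 values stayed on their side of the threshold, 108 gained a call and 229 lost it, and 12 changed sign with a call before or after. Of the 6911, 274 changed sign without being called either way. For chimeric against SD controls, quantile normalization turned Cox5b (-0.00608), Ndufa12 (-0.0506), Ndufa4 (-0.14), Ndufb10 (-0.0021), Ndufs3 (-0.32), Ndufs7 (-0.23), Ndufv1 (-0.19) and Uqcrfs1 (-0.31), and the mean over all probes turned Cox6b1 (0.18) and Ndufaf4 (-0.46). The mean over probes turned Ndufaf7 for KO against SD controls (0.0455), and a slide block turned Ndufs3 for the chimeric response (-0.0503). Arrays give no depth in reads, and signals near background limit Cox6a2, Cox8b and Ndufaf7.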
